A study of Mus musculus with 10 samples.

Results

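Cytosolic ribosomal protein genes encode the protein part of the ribosome, and their transcripts were followed here in mouse hippocampus after a procedure meant to ablate the meningeal lymphatic vessels. The 51 genes were taken by symbol, 31 of the large subunit (Rpl and Rplp names) and 20 of the small subunit (Rps names), out of 27343 genes in the deposited table. Of the 51, 49 passed the filter on low counts (edgeR's filterByExpr) and were tested among 15938 genes, and Rpl18 and Rps12 did not. The mice were wild-type C57BL/6J males, 2 months old. In the Visudyne group, 5 libraries, the photosensitizer verteporfin was injected into the cisterna magna and converted by 689-nm non-thermal red light over the closed skull, and the vehicle group, 5 libraries, received vehicle in its place and the light as well. The procedure was done again after 2 weeks, the mice swam in the Morris water maze 2 weeks later, and the whole hippocampus was taken 3 days after it. The labels call the Visudyne treatment Visudyne plus maze and the vehicle treatment vehicle only, while the titles place both groups in the maze.

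A ribosome holds 1 copy of nearly every ribosomal protein, so cells make these proteins in matched amounts and degrade what is not assembled. In mammals their messenger RNAs begin with a C followed by a stretch of pyrimidines, the 5′ terminal oligopyrimidine (TOP) motif, through which mTOR and the RNA-binding protein Larp1 control their translation together. In neurons ribosomal protein messenger RNAs are also found in axons and dendrites.

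Ribosomal protein transcripts were lower in the Visudyne hippocampus for many members, in no member was a rise called, and several of the most abundant members lay near 0. Of the 49 tested, 24 fell at a Benjamini-Hochberg adjusted p under 0.05 by edgeR's quasi-likelihood test, against 11.5% of all tested genes called lower. None rose, against 8.98% of all tested genes called higher. At an unadjusted p under 0.05 by edgeR, 36 members were lower and 2, Rpl5 and Rpl15, were higher. The share of all tested genes at an unadjusted p was not computed, here or below, so such counts have no background. By the 2 other tools 0 members were called higher. DESeq2 called 29 of its 50 members lower, with 14.7% of all its genes lower and 10.7% higher. Limma-voom called 24 members lower, with 12.2% of all genes lower and 9.29% higher. The median log2 fold change, Visudyne over vehicle, was -0.44 over the members and 0.01 over all tested genes, and 43 members were below 0 and 6 above it. In 12 members all 5 Visudyne libraries lay below all 5 vehicle libraries, against 7.22% of all tested genes, and in 0 members they lay above, against 5.25%.

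Single libraries decided the count of calls, among the members and over all genes alike. The count of members called lower was 0 on leaving out Visudyne 3, where 0.031% of all tested genes were lower, and 0 on leaving out vehicle 6, where 0.0311% were. In each of these fits 34 members were lower at an unadjusted p under 0.05, a count without a background share. The count was 1 (Rpl7) without vehicle 9, with 0.796% of all genes lower, 12 without Visudyne 4, with 3.7%, and 15 without Visudyne 1, with 4.22%. The median moved less, lying between -0.54 and -0.36 in the 10 fits that left out 1 library. With total counts in place of TMM scaling 38 members were called lower, against 24.5% of all tested genes. With 1 surrogate variable in the model, 0 members were called, against 0% of all tested genes lower by edgeR, while 20 members were lower at an unadjusted p under 0.05 and the median was -0.14.

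**Figure D1:**
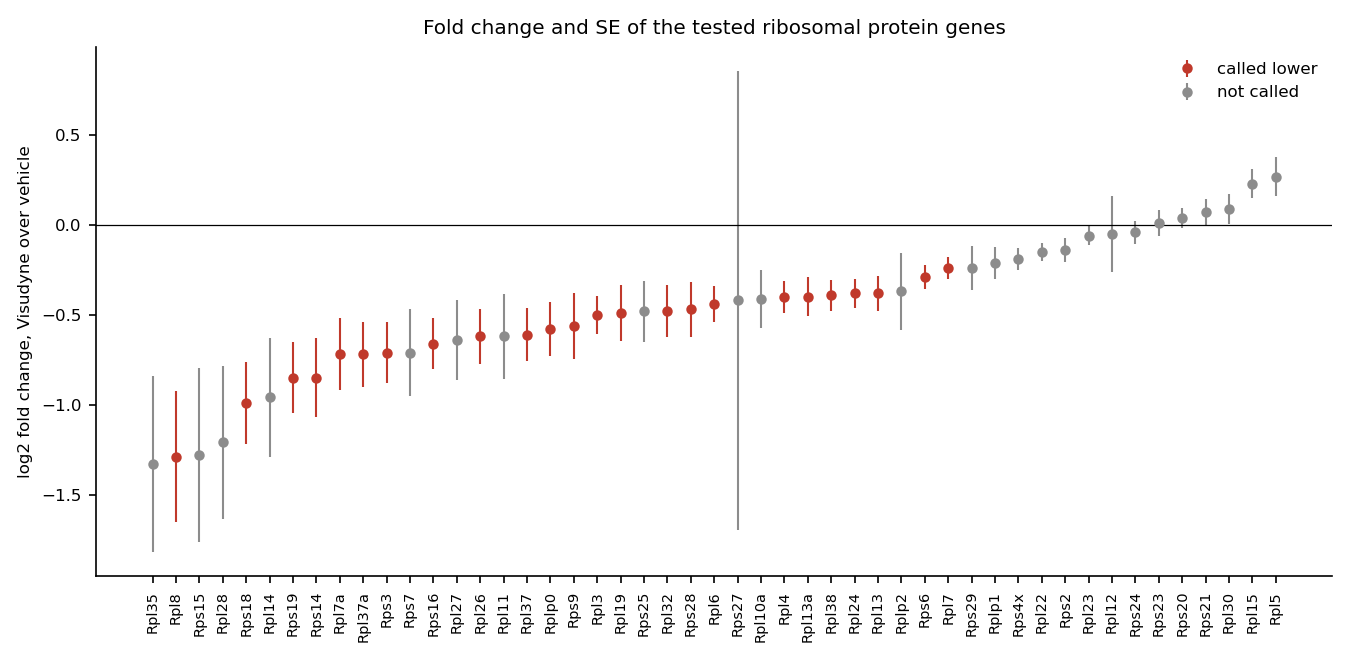
Log2 fold change (Visudyne over vehicle, vertical axis) of the 49 tested members in rising order along the horizontal axis, with bars for 1 SE by edgeR. Points in red were called lower, points in grey were not called, and values ran from -1.33 for Rpl35 to 0.27 for Rpl5.

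Total counts were 34548474 to 36956138 per Visudyne library and 24752362 to 41073906 per vehicle library. Libraries differed in how counts followed GC content, measured as the slope of log2 CPM on percent GC over tested genes, relative to the mean library. Here CPM stands for counts scaled to a common library total after TMM normalization. The slope was -0.0528 to 0.000846 in Visudyne libraries and -0.00184 to 0.0402 in vehicle libraries, so it moved with treatment, overlapping through Visudyne 5 and vehicle 10 alone. Summed markers of hippocampal neurons came to 2612 to 3109 CPM with Visudyne and 2594 to 2910 CPM with vehicle, with 0 of 8 called higher and 2 lower. Of the 7 tested oligodendrocyte markers 4 fell, with sums of 2180 to 2602 CPM with Visudyne and 2258 to 3038 CPM with vehicle. The 8 choroid plexus markers summed to 24.9 to 435.1 CPM with Visudyne and 24.4 to 36.4 CPM with vehicle. Of the 7 tested, 1 was called higher, Ttr, the transthyretin gene, at 2.01, 1.15, 304, 1.63 and 229 CPM in Visudyne 1 to 5, against 6.44, 6.05, 2.9, 1.83 and 8.03 CPM in vehicle 6 to 10. Visudyne 3 and 5 alone stood high, and the other 3 Visudyne libraries lay at or below most vehicle libraries. With Visudyne 3 and 5 left out, 25 members were called lower, against 10.6% of all tested genes, and their median was -0.56. Microglial markers summed to 194 to 235.1 CPM with Visudyne, against 174 to 198.8 CPM with vehicle, with 1 of 8 called lower and 1 higher. Astrocyte markers summed to 4751 to 6188 CPM with Visudyne, against 4648 to 5340 CPM with vehicle, with 1 of 8 called lower, and endothelial markers to 120.9 to 141.7 CPM, against 107.9 to 129.3 CPM with vehicle, with 1 of 8 called higher. No list had a marker at 0 in every library, and over all tested genes 11.5% were called lower and 8.98% higher. The part of these cell types in the ribosomal protein values was not tested, and in whole tissue fewer cells of a type cannot be told apart from less RNA per cell.

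Core proteins of the large subunit were among the members with the smallest p. Rpl3 (ENSMUSG00000060036, GRCm38 chromosome 15, 80077791 to 80091868), which encodes a protein reaching toward the peptidyl transferase centre, stood at 91.4, 118, 106, 129 and 141 CPM in Visudyne 1 to 5, against 173, 164, 156, 187 and 149 CPM in vehicle 6 to 10. The groups did not overlap, with Visudyne 1 lowest and vehicle 9 highest. The means were 117 ± 19.1 CPM with Visudyne and 166 ± 14.9 CPM with vehicle, SD over 5 libraries each, which is -0.50 on the log2 scale (SE 0.107; edgeR adjusted p = 0.023). Rpl4 (ENSMUSG00000032399, chromosome 9, 64173375 to 64178666), whose protein lines the peptide exit tunnel, stood at 120 to 170 CPM with Visudyne and 174 to 211 CPM with vehicle, again without overlap, and its log2 fold change was -0.40 (SE 0.09). Rpl6 fell to 54.2 ± 8.65 CPM in Visudyne, against 73.5 ± 4.48 CPM in vehicle. Rpl26, which encodes a protein at the rim of the exit tunnel, fell to 39 ± 9.9 CPM in Visudyne, against 59.8 ± 6.92 CPM in vehicle.

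Rpl24 (ENSMUSG00000098274, chromosome 16, 55966275 to 55971435), which encodes a protein of the bridge between the subunits and is mutated in the Belly spot and tail mouse, had the smallest p of all members. Its values were 30.6, 33.6, 31.3, 37.8 and 36.8 CPM in Visudyne, against 46.4, 45.5, 43.9, 47.9 and 37.8 CPM in vehicle. Visudyne 4 and vehicle 10 stood at the same rounded value, and the other libraries were apart. The log2 fold change was -0.38 (SE 0.08; edgeR adjusted p = 0.023). Rpl38 (ENSMUSG00000057322, chromosome 11, 114668524 to 114672331), needed for translation of a subset of Hox messenger RNAs in the mouse embryo, stood at 26.7 to 37.6 CPM with Visudyne and 39.5 to 46.5 CPM with vehicle, without overlap (log2 fold change -0.39, SE 0.086). Rpl7, with 164 ± 10.5 CPM with Visudyne and 193 ± 9.69 CPM with vehicle, had one of the smaller falls, at -0.24.

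The lateral stalk, where Rplp0 anchors Rplp1 and Rplp2 and elongation factors bind, had 1 of 3 members called lower, against 11.5% of all tested genes. Rplp0 (ENSMUSG00000067274, chromosome 5, 115559467 to 115563727) stood at 8.85, 13.3, 11.9, 11.2 and 15.6 CPM in Visudyne, against 19.3, 17.6, 16, 22.9 and 14.8 CPM in vehicle. Visudyne 5 lay above vehicle 10, and the other Visudyne libraries lay below every vehicle library. Its log2 fold change was -0.58 (SE 0.149; edgeR adjusted p = 0.029). Rplp1 averaged 17.6 ± 1.21 CPM with Visudyne and 20.3 ± 2.61 CPM with vehicle (adjusted p = 0.11), and Rplp2 averaged 3.79 ± 1.09 CPM with Visudyne, against 4.87 ± 1.09 CPM with vehicle (adjusted p = 0.21). Rpl12, whose protein sits at the base of the stalk, had 1.98 ± 0.601 CPM with Visudyne and 2.04 ± 0.389 CPM with vehicle and was not called.

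Rpl5 and Rpl11 proteins bind the 5S ribosomal RNA and, when free, hold back the p53 ligase Mdm2. As deposited, neither gene was called. Rpl5 (ENSMUSG00000058558, chromosome 5, 107900502 to 107909005) stood at 56, 54.2, 54.7, 42.7 and 40.8 CPM in Visudyne, against 44.5, 42.4, 44.1, 32.6 and 42 CPM in vehicle. Visudyne 1, 2 and 3 were above every vehicle library, while Visudyne 4 and 5 lay within the vehicle range (log2 fold change 0.27 with SE 0.11; edgeR adjusted p = 0.088; 0.035 without Visudyne 5). Rpl11 had 6.81 ± 1.76 CPM with Visudyne and 10.4 ± 3.73 CPM with vehicle, at a log2 fold change of -0.62 (SE 0.236). Near-identical copies of Rpl11 held more counts than the gene, and with them it was called lower, at -0.47 (edgeR adjusted p = 0.032). Rpl15, a large subunit core protein gene, was the other member above 0 at an unadjusted p under 0.05. It stood at 119, 101, 113, 99.6 and 91.6 CPM in Visudyne, against 91.3, 91.2, 92.9, 77.8 and 95 CPM in vehicle (log2 fold change 0.23 with SE 0.08; edgeR adjusted p = 0.059; 0.022 without Visudyne 5). With the counts of its near-identical copies added, Rpl15 was at 0.16 (edgeR adjusted p = 0.1).

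In the small subunit 8 of 19 tested members were called lower, their median log2 fold change being -0.47. In the large subunit 16 of 30 were, with a median of -0.42, against 11.5% of all tested genes called lower. Rps6 (ENSMUSG00000028495, chromosome 4, 86854660 to 86857412), which encodes the protein phosphorylated by S6 kinase downstream of mTOR, stood at 91.8, 111, 98, 106 and 115 CPM in Visudyne, against 129, 132, 129, 128 and 119 CPM in vehicle. The groups did not overlap, and the log2 fold change was -0.29 (SE 0.066; edgeR adjusted p = 0.025). Rps16 (ENSMUSG00000037563, chromosome 7, 28350652 to 28353155), whose protein has its tail near the decoding site, stood at 5.53, 7.64, 6.19, 7.65 and 8.24 CPM in Visudyne, against 12.5, 9.38, 9.99, 14 and 9.96 CPM in vehicle. It too separated the groups, at a log2 fold change of -0.66 (SE 0.14). Rps3, whose protein lines the messenger RNA entry channel, fell to 17 ± 3.34 CPM in Visudyne, against 27.9 ± 6.79 CPM in vehicle. Rps19, the gene most often mutated in human Diamond-Blackfan anaemia, fell to 8.7 ± 2.17 CPM, against 15.7 ± 3.97 CPM in vehicle, and did so without overlap.

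**Figure D2:**
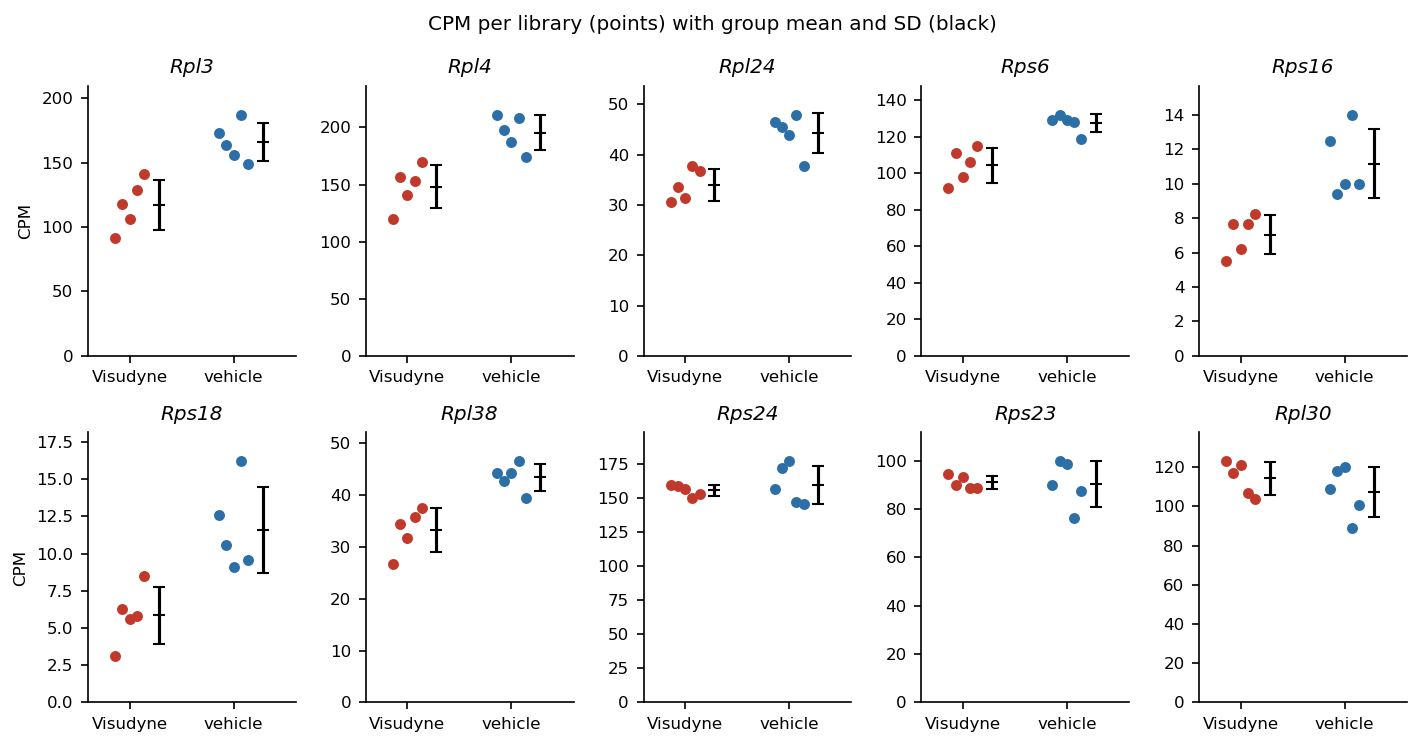
CPM per library of 10 members (vertical axes start at 0), with 1 point per library, 5 Visudyne libraries left and 5 vehicle libraries right, and the mean with its SD in black. Rpl3, Rpl4, Rps6, Rps16, Rps18 and Rpl38 separate the groups, Rpl24 nearly does, and Rps24, Rps23 and Rpl30 do not.

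Some members that serve as reference genes in quantitative PCR differed between the groups. Rps18 (ENSMUSG00000008668, chromosome 17, 33951999 to 33956001) stood at 3.11, 6.27, 5.59, 5.79 and 8.48 CPM in Visudyne, against 12.6, 10.6, 9.1, 16.2 and 9.57 CPM in vehicle. It separated the groups, at 0.504 of the vehicle level (log2 fold change -0.99 with SE 0.227; edgeR adjusted p = 0.026). Rpl13a stood at 9.89 to 13.7 CPM with Visudyne and 13.5 to 18.8 CPM with vehicle, at 0.759 of the vehicle level (adjusted p = 0.031), and Rplp0 was at 0.671.

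Deposited counts per kilobase of annotated transcript spread widely among genes whose proteins are needed in nearly equal number. Rps24 had the highest level, 300 CPM per kb, followed by Rpl30 at 194 and Rps4x at 160, and these were means over the 10 libraries. At the low end Rps12 stood at 0.0116 CPM per kb, with counts of 0 in every library but vehicle 7, Rpl18 at 0.546, with 0 to 0.835 CPM with Visudyne and 0 to 1.32 CPM with vehicle, and Rpl27 at 1.14. Near-identical copies of Rps12 and Rpl27 held more counts than the genes, and with copies added Rpl27 stood at 13.7 ± 2.23 CPM with Visudyne, against 20.7 ± 2.27 CPM with vehicle, and the deposited levels of both genes are uncertain. Rps24, Rpl30 and Rps4x were not called. Rps24, another Diamond-Blackfan anaemia gene, stood at 160, 159, 157, 150 and 153 CPM in Visudyne, against 157, 172, 177, 147 and 146 CPM in vehicle. Its values overlapped throughout (log2 fold change -0.04, SE 0.064). Rpl30 averaged 114 ± 8.55 CPM with Visudyne and 107 ± 12.7 CPM with vehicle, and Rps4x, the X-linked gene of its protein, averaged 146 ± 9.41 CPM with Visudyne, against 167 ± 10.6 CPM with vehicle (adjusted p = 0.053). Rpl22, whose protein also binds viral RNA, had 41.7 to 45.4 CPM with Visudyne and 45.3 to 50.6 CPM with vehicle (adjusted p = 0.055), and Rpl35, the member farthest from 0 as deposited, at -1.33, had 0.44 to 2.61 CPM with Visudyne, against 1.3 to 5.7 CPM with vehicle (SE 0.492, adjusted p = 0.068). With its copies Rpl35 was at -0.77 and was called lower (edgeR adjusted p = 0.03). Rps23, a protein gene of the decoding centre, had 91 ± 2.69 CPM with Visudyne and 90.5 ± 9.5 CPM with vehicle.

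Grouped by mean level, with boundaries set after the values were seen and so without a test, the 14 members of at least 50 CPM had a median log2 fold change of -0.10 and 5 were called lower. The 20 members of 10 to 50 CPM had a median of -0.47 with 15 called. The 15 tested members under 10 CPM had a median of -0.66 with 4 called, and their SEs were larger, up to 1.28 for Rps27. Median GC content of the annotated transcripts was 48.9%, 53.5% and 53.6% in these 3 groups. Over all tested genes of any level 11.5% were called lower. The share among all genes of like level was not computed, so the counts by level have no matched background. Summed over all 51 members the level was 2010 ± 131 CPM in Visudyne, from 1819 to 2165, and 2383 ± 131 CPM in vehicle, from 2157 to 2476. Visudyne 5 thus reached the level of vehicle 10, and the other libraries were apart.

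Members of lower GC content lay closer to 0. Over the 49 members Spearman's rho of log2 fold change was -0.45 with GC content, 0.62 with mean level and 0.07 with length, and over all tested genes it was -0.69 with GC content (n = 15829), 0.12 with level and 0.07 with length. These genes share the same 10 libraries, so the values only describe them. In the range of 50% to 55% GC the 24 members had a median of -0.50 and the 4042 other genes -0.15. Between 45% and 50% GC the 13 members had a median of -0.19 and the other genes 0.07, while between 55% and 60% the 9 members, at -0.39, were close to the other genes, at -0.41.

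To show these sequences, the first 60 coding bases are given for 2 called members with large falls and for the 2 most abundant members per kb, with G and C in capitals, from the GENCODE M21 transcripts.
Rpl8: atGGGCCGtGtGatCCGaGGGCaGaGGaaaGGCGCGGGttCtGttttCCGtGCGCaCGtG
Rps18: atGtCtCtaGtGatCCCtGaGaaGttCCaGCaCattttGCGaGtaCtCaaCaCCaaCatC
Rps24: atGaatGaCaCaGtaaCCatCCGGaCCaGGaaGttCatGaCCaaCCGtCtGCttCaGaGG
Rpl30: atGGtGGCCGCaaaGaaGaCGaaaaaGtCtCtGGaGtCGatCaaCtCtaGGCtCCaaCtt
The window holds 38 G or C in Rpl8, 27 in Rps18, 30 in Rps24 and 29 in Rpl30. Over the whole coding sequence GC content was 58.8% in Rpl8, 54.6% in Rps18, 46.1% in Rps24 and 44.9% in Rpl30. Over the annotated transcripts, the measure used above, it was 58.2%, 54.2%, 48.1% and 49.7% in the same order. Rpl8 stood at 1.04, 3.34, 2.2, 2.51 and 4.33 CPM in Visudyne, against 7.22, 5.47, 4.21, 12 and 4.06 CPM in vehicle, which is -1.29 on the log2 scale (SE 0.364; edgeR adjusted p = 0.034). Visudyne 5 lay above vehicle 8 and vehicle 10.

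**Figure D3:**
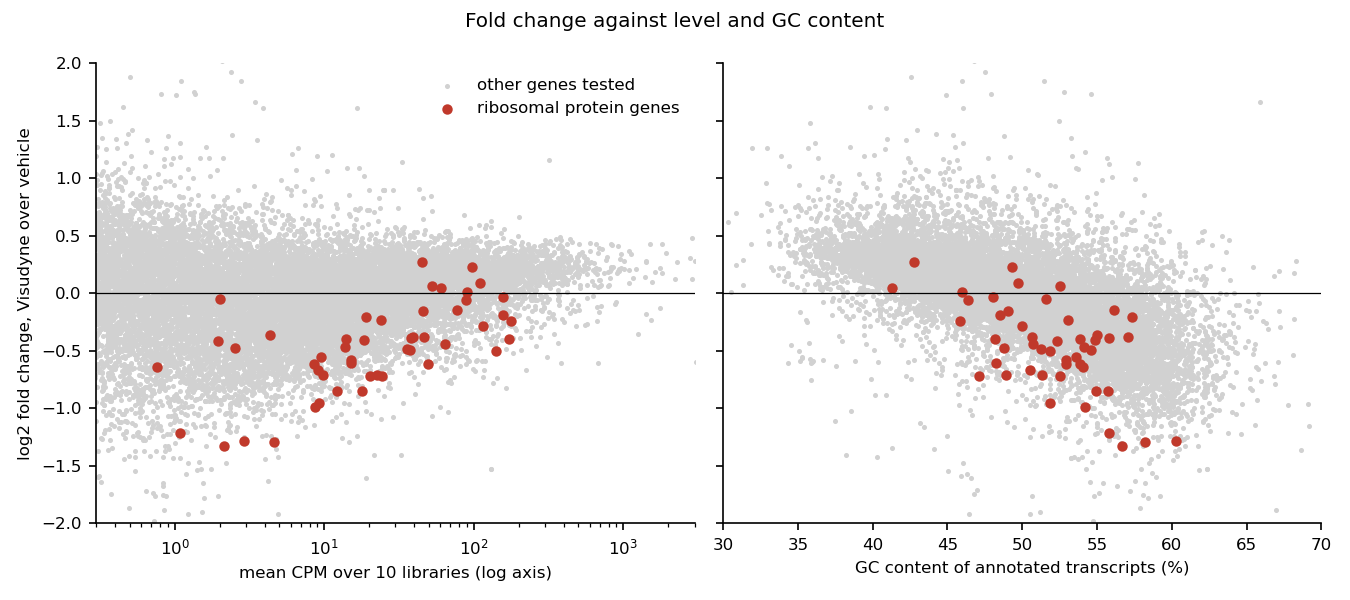
Log2 fold change (Visudyne over vehicle, vertical axis) against the mean CPM on a log axis (left) and against percent GC of annotated transcripts (right), with ribosomal protein genes in red and other tested genes in grey. Genes outside the drawn ranges are not shown. The 14 members of at least 50 CPM run from -0.50 to 0.23, at a median of -0.10, with 5 called lower. Spearman's rho with GC content over the members is -0.45.

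With the dependence on GC content taken out of every library through offsets, 14 members were called lower, against 1.84% of all tested genes, and 0 higher, with 33 lower and 4 higher at an unadjusted p under 0.05. The median of the members was then -0.33. Of those 14, 13 had been called without the correction: Rpl3, Rpl4, Rpl6, Rpl7, Rpl24, Rpl26, Rpl37, Rpl37a, Rps3, Rps6, Rps16, Rps18 and Rps19. The other one was Rps20, at -0.20 against 0.04 without the correction. Rpl38 then stood at -0.05 and Rpl13, a large subunit gene of 57% GC, at 0.02 against -0.38. Rpl30 and Rps24 stood at 0.12 and -0.07. The correction used the GC content of annotated transcripts, 41.3% for Rps20 and 55.8% for Rpl38. The coding sequences of Rps20 and Rpl38 had 49% and 49.5%, so both shifts rest on the annotated transcripts. With the GC slope of the library as a covariate, a quantity that moved with treatment, 0 members were called lower or higher by edgeR, as were 0% of all tested genes in either direction. Of the members 0 were lower and 2 higher at an unadjusted p under 0.05, and the median was -0.03.

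Many members ranked the libraries alike. Visudyne 1 was the lowest of all 10 libraries in 38 of the 49 members and vehicle 9 the highest in 29. Within its own group Visudyne 5 was highest in 33 members and vehicle 10 lowest in 33. The members took 0.188% ± 0.0281 of all counts in Visudyne, from 0.157% in Visudyne 1 to 0.23% in Visudyne 5, and 0.256% ± 0.0237 in vehicle, from 0.221% in vehicle 10 to 0.281% in vehicle 9. The 16S mitochondrial ribosomal RNA mt-Rnr2 took 37.2% ± 2.52 of counts in Visudyne and 33.6% ± 1.36 in vehicle. Without mitochondrially encoded genes the members' share was 0.352% ± 0.0381 in Visudyne and 0.442% ± 0.0361 in vehicle. In both groups the library with the lowest share also had the lowest GC slope, and the library with the highest share the highest slope.

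**Figure D4:**
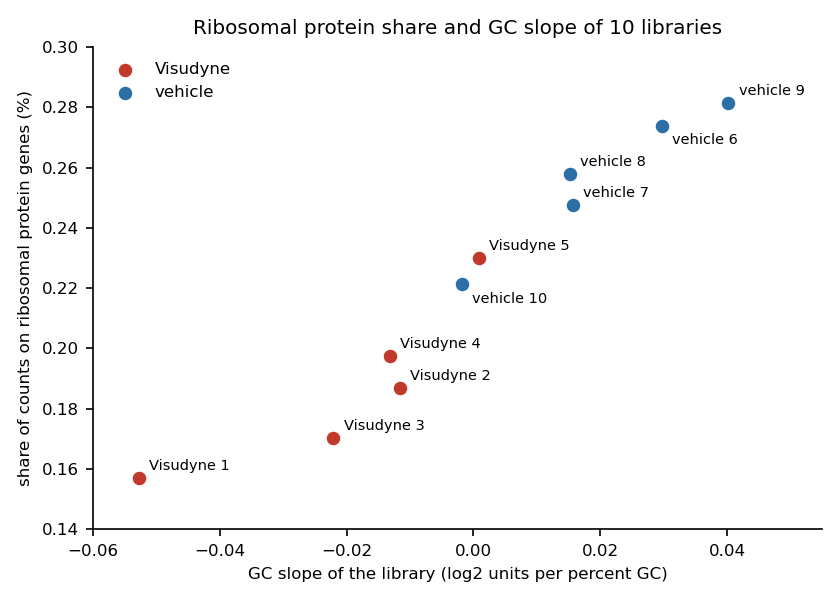
Share of each library's counts on the 51 members (vertical axis, percent) against the GC slope of the library (horizontal axis, log2 units per percent GC), with 1 labelled point per library. Visudyne 1 is lowest on both axes (0.157% and -0.0528) and vehicle 9 highest on both (0.281% and 0.0402), and Visudyne 5 lies beside vehicle 10.

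Ribosomal protein genes have many processed pseudogenes, copies of the messenger RNA inserted elsewhere in the genome, and reads can be split between gene and copy. Near-identical copies, of at least 95% identity over at least 80% of the coding sequence, had 121 gene entries of their own for 40 of the 51 members. In 13 members these entries held more than 10% of the member's own mean count. Not every entry was a pseudogene. Wdr89 (copy of Rplp2), Rps27rt (Rps27), Gm2000 (Rpl35) and Rps12-ps3 (Rps12) were among those annotated as protein-coding, and counts added from such entries may be their own. Rps7, which encodes a small subunit protein, had an own mean count of 248.2 in Visudyne and 468.8 in vehicle, while its 2 copies Gm6472 and Gm9493 together held 2238 in Visudyne and 2521 in vehicle. Its coding sequence differs from Gm6472, on chromosome X, at 3 bases, T26G, G48A and G123T, counted from the A of the start codon. The first 60 bases of both are shown with the differing bases in capitals, from GENCODE M21.
Rps7: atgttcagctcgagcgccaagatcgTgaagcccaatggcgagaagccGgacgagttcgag
Gm6472: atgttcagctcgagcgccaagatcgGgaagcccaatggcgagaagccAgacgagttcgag

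Values of these 13 members as deposited are therefore uncertain. With the counts of the copies added, Rps7 stood at 67, 78.1, 71.4, 73.7 and 81.1 CPM in Visudyne, against 84.6, 87.6, 86.9, 65.1 and 71.1 CPM in vehicle. Its log2 fold change was then -0.09 in place of -0.71, and it was called in neither case. Rpl5 stood at 211 ± 14 CPM with Visudyne and 211 ± 16.2 CPM with vehicle with its copies, and its log2 fold change of 0.27 became 0.00. Rps27, whose own counts were 0 in 3 Visudyne and 2 vehicle libraries, stood with Rps27rt and its other copy at 36, 50.2, 41.1, 47.8 and 56.5 CPM in Visudyne, against 65.7, 64.4, 66.6, 67.4 and 60.6 CPM in vehicle. These do not overlap, and the sum was called lower (log2 fold change -0.49 with SE 0.102; edgeR adjusted p = 0.023; -0.34 and 0.034 with the GC trend removed). Rpl12 with its copies was at -0.57 in place of -0.05 (adjusted p = 0.08), Rpl14 at -0.45 in place of -0.96 (0.032) and Rpl27 at -0.60 in place of -0.64 (0.022). Rpl10a, whose protein is the usual tag in ribosome affinity purification, was called with its copy, at -0.55 (0.029). Rps12 reached 0.449 ± 0.45 CPM with Visudyne and 1.9 ± 1.49 CPM with vehicle with its copies and was not called. In all, 31 of 50 members were called lower with the copies added, against 11.5% of all tested genes, among them all 24 called before. With the copies added and the GC trend removed, 15 members were called lower, against 1.88% of all tested genes. The edgeR adjusted p was then 0.035 for Rpl27, 0.063 for Rpl10a, 0.072 for Rpl11, 0.072 for Rpl14 and 0.12 for Rpl35.

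**Figure D5:**
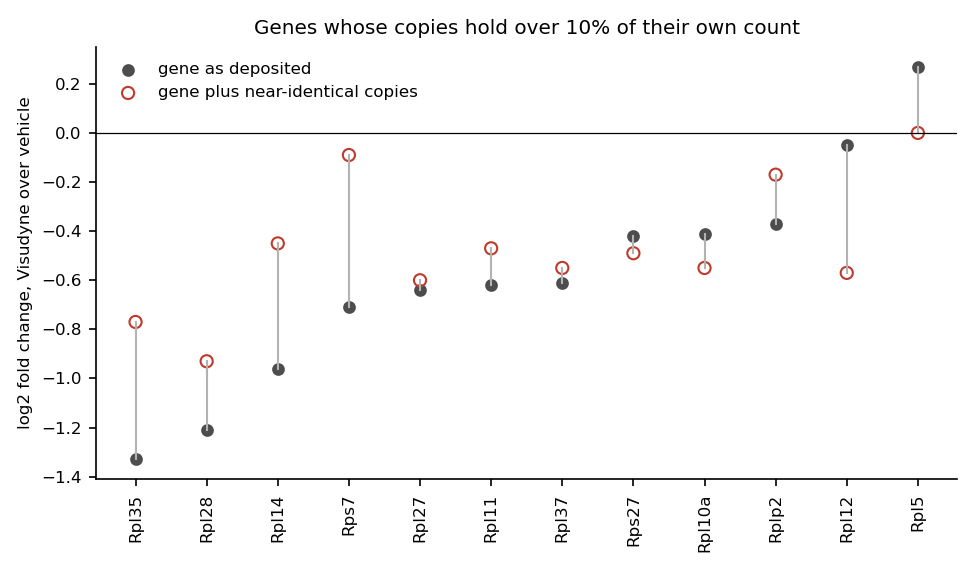
Log2 fold change (Visudyne over vehicle, vertical axis) of 12 tested members whose near-identical copies held over 10% of their own count, as deposited (filled) and with the copies' counts added (open). Rps7 goes to -0.09 from -0.71 and Rpl5 to 0.00 from 0.27, while Rpl12 goes to -0.57 from -0.05.

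Promoter windows of RefSeq on GRCm38.p6, from 250 bases before to 50 after the annotated start, were at hand for 42 of the 51 members. A run of at least 6 C or T bases within 5 bases of the start, as TOP messenger RNAs have, was found in 22 of the 42, or 52.4%, against 24% of 27025 genes. It was present in 9 of 19 members called lower and in 12 of 21 not called. The core CTTCCG of the ETS family's binding motif, searched on both strands anywhere in the window, was in 27 members, or 64.3%, against 18.8% of genes, in 14 of 19 called lower and in 12 of 21 not called, the 2 remaining members being untested. GGGCGG was in 54.8% of members and 38.2% of genes, CCAAT in 33.3% and 41.1%, and TATAAA in 9.5% and 15.7%. These calls are those of the counts as deposited, which are uncertain for the members with many copy counts. With its copies added Rps27 was called lower (edgeR adjusted p = 0.023). The 30 bases before and 20 from the start on are shown for 3 members called lower as deposited (Rpl38, Rps6 and Rps18) and 3 not called (Rps24, Rpl15 and Rps27). The pyrimidine run is in capitals, since both sets hold such a run.
Rpl38, chr11:114668550-114668599, plus strand: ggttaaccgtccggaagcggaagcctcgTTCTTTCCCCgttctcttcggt
Rps6, chr4:86857348-86857397, minus strand: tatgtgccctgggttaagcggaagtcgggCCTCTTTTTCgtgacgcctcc
Rps18, chr17:33955646-33955695, minus strand: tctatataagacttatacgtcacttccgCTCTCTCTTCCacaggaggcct
Rps24, chr14:24490648-24490697, plus strand: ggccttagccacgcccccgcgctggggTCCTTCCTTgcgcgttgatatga
Rpl15, chr14:18270967-18271016, minus strand: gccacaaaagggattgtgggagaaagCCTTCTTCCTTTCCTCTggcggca
Rps27, chr3:90213629-90213678, minus strand: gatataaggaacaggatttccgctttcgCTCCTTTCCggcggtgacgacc

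The remaining cytosolic ribosomal protein genes, 28 that were not among the 51, had 27 tested, 14 called lower and 0 higher (18 lower and 1 higher at an unadjusted p under 0.05), with a median log2 fold change of -0.45. Over all tested genes 11.5% were called lower and 8.98% higher. Rpl21 fell to 73.3 ± 11 CPM in Visudyne, against 104 ± 12 CPM in vehicle, and Rps3a1 to 144 ± 7.46 CPM, against 173 ± 7.99 CPM. The summed level of the 28 genes was 958.1 to 1194 CPM with Visudyne and 1168 to 1411 CPM with vehicle. With the GC trend removed 5 of the 27 were called lower and 0 higher, with a median of -0.29. In that fit 1.84% of all tested genes were lower and 2.09% higher. Of 5 tested paralogs with restricted expression or a second copy, Rpl36al fell, to 16.9 ± 1.91 CPM in Visudyne, against 21.2 ± 2.4 CPM in vehicle, and none rose.

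Other TOP messenger RNAs and elongation factor genes were lower in 9 and higher in 1 of 16, with a median of -0.24. Over all tested genes 11.5% were lower and 8.98% higher. Rack1, a scaffold protein gene of the small subunit, fell to 30 ± 3.83 CPM in Visudyne, against 41.9 ± 5.86 CPM in vehicle, and Eif3f, an initiation factor subunit gene, to 16.9 ± 2.34 CPM, against 22.8 ± 1.63 CPM. Pabpc1, the cytoplasmic poly(A)-binding protein gene, rose to 48.2 ± 4.89 CPM, against 39.2 ± 2.13 CPM in vehicle. With the GC trend removed 6 of the 16 were called lower and 0 higher, where 1.84% of all tested genes were lower and 2.09% higher.

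Of 36 tested genes of RNA polymerase I and ribosome assembly, 7 were called lower and 2 higher, where 11.5% of all tested genes were lower and 8.98% higher, with a median of -0.12. Ubtf, which activates ribosomal RNA gene transcription, fell to 24.1 ± 2.62 CPM in Visudyne, against 33 ± 1.96 CPM in vehicle, and Bop1 to 2.76 ± 0.595 CPM, against 4.74 ± 0.974 CPM. Ncl, the nucleolin gene, rose to 102 ± 11.8 CPM, against 79 ± 6.46 CPM in vehicle, and Rrs1, needed for assembly of the 5S particle, to 7.93 ± 0.753 CPM, against 6.41 ± 0.515 CPM. With the GC trend removed 0 of them were called lower and 1 higher, where 1.84% of all tested genes were lower and 2.09% higher.

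Among 13 regulators of TOP translation 3 were called lower and 2 higher, where 11.5% of all tested genes were lower and 8.98% higher. Rps6kb1 and Larp4 rose, at 1.23 and 1.22 times the vehicle level, and Rps6kb2, at 0.618, and Akt1s1, an inhibitor of mTOR complex activity, at 0.56, fell. With the GC trend removed 0 were called in either direction, where 1.84% of all tested genes were lower and 2.09% higher. The median log2 fold change was then 0.01. Of 11 tested genes that survey ribosomes or unassembled ribosomal proteins, 1 was called higher and none lower. Across all tested genes 8.98% were higher, which this list was near, and 11.5% lower. The gene was Ltn1, a ubiquitin ligase gene of stalled ribosomes, at 94.3 ± 9.5 CPM in Visudyne, against 79.7 ± 2.81 CPM in vehicle.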

How the data were processed

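Total RNA of the hippocampus was sequenced from stranded libraries, per the labels' protocols. The deposited table holds whole numbers per gene. The authors name Salmon and build mm10, without their role, per the submitters' processing notes, so the values were taken as deposited estimated counts that had been rounded. The annotation used, and how transcripts were summed to genes, is not given in the sources used here. Every row named a gene. Of 27343 identifiers, 27053 were matched to GENCODE M21 (GRCm38), which also gave positions, transcript length (median over basic transcripts) and GC content. The 51 members, the lists and the tests were chosen with earlier results of these data known.

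Groups were compared with edgeR 4.0.16 in R 4.3.3 (filterByExpr, TMM, glmQLFTest, two-sided, no covariate), with Benjamini-Hochberg adjustment over all 15938 tested genes and a threshold of 0.05. The SE is the size of the log2 fold change divided by the root of F. CPM uses TMM library sizes. The code was tested on simulated data. Alternatives were RLE, upper-quartile and total-count scaling, 2 other filters, DESeq2 1.42.0, limma-voom 3.58.1 without and with library weights, 1 surrogate variable (sva 3.50.0), the GC slope as a covariate, loess (span 0.3) trends on GC content, or GC content and length, removed through offsets, and leaving out mitochondrial genes or each library. After the data were seen, copies found with BLAST+ 2.17.0 were added to their gene, without and with GC trend removal, and Visudyne 3 and 5 were left out together.

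Named members are the 8 called lower with the smallest p, the 4 with the largest p, the 3 highest and 3 lowest per kb and a panel of 15 genes, up to 28 in all, and in other lists up to 2 called in each direction. Rpl7, Rpl8, Rpl13, Rpl15, Rpl26, Rpl37, Rpl37a, Rpl14, Rps7 and Rps20 were added after their values were seen. No 2 libraries of 1 group were alike: chi-square divided by its degrees of freedom was 13.5 or more for each pair. The labels do not state that each library is 1 mouse, so p-values measure the spread between these libraries.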

Additional observations from a re-analysis of the deposited data

Results flagged for a closer look

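Of 108 groups of 5 values looked at, 3 held a library far from the other 4, where chance gives about 1 in 20. Vehicle 9 had 32.6 CPM of Rpl5, against 42 to 44.5 CPM in the other vehicle libraries. Vehicle 9 also had 77.8 CPM of Rpl15, against 91.2 to 95 CPM in the others. Both genes had higher means in Visudyne than in vehicle, and vehicle 9 was the library with the highest share of counts on the members as a whole. Vehicle 7 alone had counts of Rps12, 0.057 CPM, against 0 in the other vehicle libraries.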

How the results depend on the processing

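No paired analysis was possible because the replicate numbers run from 1 to 5 in Visudyne and from 6 to 10 in vehicle. Against 24 members called lower, the count was 38 with total counts alone, 0 with 1 surrogate variable, 0 with the GC slope in the model, 14 with the GC trend removed, 14 with GC and length trends removed, and 15 with copies added and the GC trend removed. It ranged from 0 to 34 when 1 library was left out, and from 21 to 31 under the other settings. Members called higher went from 0 to 1 (Rpl15) with a filter of at least 1 CPM in 5 libraries, where 13.4% of all tested genes were higher. They ranged from 0 to 2 when 1 library was left out. The 2 were Rpl5 and Rpl15, without Visudyne 5, where 13.6% of all tested genes were higher. The median of -0.44 was -0.66 with total counts alone, where the median of all genes moved to -0.19 and the members stood -0.47 from it, and -0.14 with 1 surrogate variable and -0.03 with the slope in the model. It ranged from -0.54 to -0.36 without 1 library. The difference in summed share, -0.0681 percentage points, ranged from -0.0786 to -0.0603 without 1 library. The log2 fold change of Rps23 went from 0.01 to -0.21 (adjusted p = 0.049 by edgeR) with copies added and the GC trend removed. With total counts alone only Rpl5 and Rpl15 stayed above 0, at 0.06 and 0.02, and Rpl30, Rps20, Rps21 and Rps23 were below it. The cause of these changes was not tested. The GC slope of the libraries moved with treatment, so an effect of GC content and an effect of treatment cannot be told apart in these fits.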
